A study of Mus musculus with 28 samples.

Results

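Genes of the R-spondin system, 10 in all, were followed across the libraries: the secreted R-spondins Rspo1, Rspo2, Rspo3 and Rspo4, their receptors Lgr4, Lgr5 and Lgr6, the membrane ubiquitin ligases Znrf3 and Rnf43, and the feedback gene Axin2. They are 10 of the 51912 genes in the deposited table. They were chosen because, in these libraries, Lgr5 differed by microbiota and by gut segment in neuronal nuclei and Rspo1 differed by segment in non-neuronal nuclei. Differences in those contrasts are therefore given as a description, without a test.

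The libraries hold nuclear RNA from the longitudinal muscle and myenteric plexus of C57BL/6 mice, taken from the colon or the small intestine of germ-free (GF) or specific pathogen-free (SPF) animals. Every group, GF and SPF alike, had received AAV9-CaMKII-EGFPKASH intravenously 5 weeks earlier, a virus whose CaMKII promoter drives a nuclear-envelope EGFP. Sorting gave EGFP-positive nuclei, called neuronal here, and EGFP-negative nuclei, called non-neuronal, so the neuronal fraction holds only those neurons that were transduced and used this promoter. Each of the 8 groups, 1 per microbiota state, segment and fraction, has 4 SPF or 3 GF libraries, and the labels give no age or sex and do not tie libraries to animals, so p-values measure the spread between libraries, which may be technical in part.

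Library totals ran from 2394481 to 7321875 counts. Levels are counts scaled to the library total (CPM), and a count of 0 allows up to 3 counts, which is 0.410 to 1.25 CPM depending on the library. A list of 8 enteric neuron markers summed to between 3193 and 5355 CPM in neuronal libraries. The same list summed to 692 to 1517 CPM in colonic and 11.7 to 635 CPM in small intestinal non-neuronal libraries, so neuronal transcripts were least depleted in the colon. Xist stood at 5594 to 16060 CPM in the 8 libraries of SPF replicates 3 and 4 and at 7.12 to 63.0 CPM in the other 20, all GF libraries among them. The SPF against GF values of Rspo1 in non-neuronal nuclei are therefore also given with SPF replicates 1 and 2 only, a choice made after seeing the data. Other SPF against GF values are given with all SPF replicates.

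Wnt proteins keep beta-catenin from being degraded when they bind Frizzled receptors with an LRP co-receptor at the cell surface. ZNRF3 and RNF43 mark Frizzled receptors for removal and so restrain the pathway, while an R-spondin bound to LGR4, LGR5 or LGR6 clears these ligases and leaves more Frizzled on the membrane. AXIN2, like ZNRF3 and RNF43, is switched on by beta-catenin and acts back on it, as a scaffold of the complex that degrades it. In the gut, R-spondins made by stromal cells sustain LGR5-positive stem cells at the crypt base, a layer that lies outside the muscle wall sampled here.

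Rspo1, a ligand known for expanding intestinal crypts, was a transcript of the non-neuronal fraction in both segments and both microbiota states. Of the 10 genes it was the only one that edgeR called between fractions in all 4 comparisons, where it was lower in neuronal nuclei, with log2 fold changes of -6.59 to -5.36. The gene was chosen on a segment difference in the non-neuronal libraries, which enter each of these comparisons. Its calls and adjusted p-values between fractions are therefore given as a description. Across the 14 non-neuronal libraries it ran from 11.1 to 246 CPM, with a median of 74.2 CPM. Across the 14 neuronal libraries it ran from 0 to 8.35 CPM, with a median of 0.852 CPM.

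**Figure D1:**
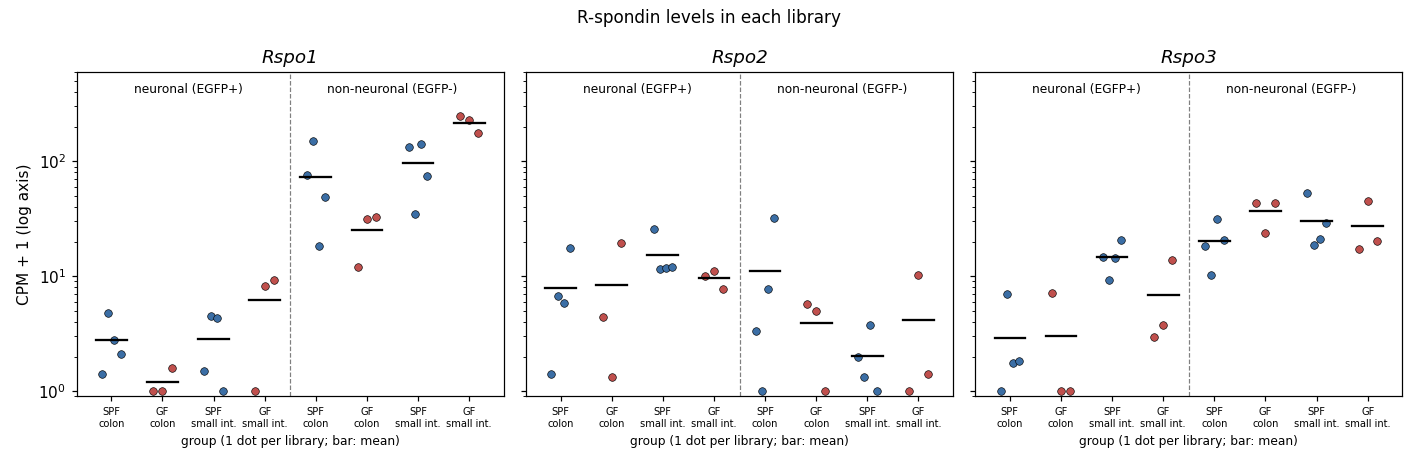
CPM plus 1, on a log axis, of Rspo1, Rspo2 and Rspo3 in each library of the 8 groups. Dots are libraries, blue SPF and red GF, ordered by replicate, and bars are group means. Rspo1 lies between 11.1 and 246 CPM in the non-neuronal groups and at or below 8.35 CPM in the neuronal groups, Rspo2 lies at or below 31.2 CPM in every library, and Rspo3 reaches its highest level, 51.5 CPM, in a non-neuronal library.

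The Rspo1 gene lies on chromosome 4 of GRCm38, at 124986430 to 125009099 on the plus strand. The 250 bases before its start, at chr4:124986180-124986429 on the plus strand, are shown from RefSeq (GRCm38.p6) because Rspo1 is the member with the widest difference in level between groups. The window is 66.8% G and C and holds 22 CpG pairs.
Rspo1 promoter: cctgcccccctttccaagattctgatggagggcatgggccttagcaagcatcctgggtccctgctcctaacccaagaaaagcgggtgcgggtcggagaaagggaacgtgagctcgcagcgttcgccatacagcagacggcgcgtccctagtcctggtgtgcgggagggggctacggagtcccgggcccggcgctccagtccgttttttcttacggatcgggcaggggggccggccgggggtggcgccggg
The window was searched on both strands for the core of the TCF motif, written with its variants as CTTTGAA and as CTTTGAT, or with a T in the sixth place as CTTTGTA and as CTTTGTT, and it holds none of these 4. At least 1 of these 4 is present on either strand in 14.8% of 32851 promoter windows of this length. Windows were found for 6 of the 10 genes, and none of their 7 windows holds one, which says only that these letters are missing there.

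In the SPF colon, Rspo1 stood at 74.9, 149, 17.5 and 48.1 CPM in the non-neuronal libraries and at 0.413, 3.79, 1.79 and 1.11 CPM in the neuronal libraries. The lowest non-neuronal library was thus above the highest neuronal one, and the group means, 72.4 ± 56.3 CPM (SD, n = 4) and 1.78 ± 1.46 CPM (SD, n = 4), were 40.7-fold apart. Fitted log2 fold changes are given as neuronal minus non-neuronal throughout, so a negative value is a lower level in neuronal nuclei, and by edgeR's quasi-likelihood test Rspo1 was lower at -5.36 (SE 0.95, Benjamini-Hochberg adjusted p = 0.000174). In bulk libraries of this kind, fewer cells of a type and less RNA per cell cannot be told apart.

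SPF small intestinal non-neuronal libraries held 131, 33.9, 142 and 73.4 CPM of Rspo1, and their neuronal counterparts 0.502, 3.49, 3.34 and 0 CPM. The groups again did not overlap, and the means of 95.1 ± 50.7 and 1.83 ± 1.84 CPM (SD, n = 4 each) were 51.8-fold apart (edgeR log2 fold change -5.90, SE 0.97, adjusted p = 3.13e-05). In the GF colon, Rspo1 stood at 11.1, 30.3 and 31.9 CPM in non-neuronal libraries and at 0, 0 and 0.59 CPM in neuronal libraries. Those neuronal libraries held 2 Rspo1 counts in all, so the ratio of pooled counts, 114, has a 95% interval of 31.3 to 949 for counting error alone (edgeR log2 fold change -6.59, SE 1.29, adjusted p = 0.000915).

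The highest levels were in the GF small intestine, where the non-neuronal libraries held 246, 227 and 174 CPM of Rspo1 and the neuronal ones 0, 7.29 and 8.35 CPM. Their means of 216 ± 37.5 and 5.21 ± 4.54 CPM (SD, n = 3 each) were 41.4-fold apart (edgeR log2 fold change -5.95, SE 1.1, adjusted p = 0.000237). Rspo1 kept its call in every alternative run for the 4 fraction comparisons, 13 of 13 in each SPF comparison and 11 of 11 in each GF comparison, with the highest adjusted p at 0.0172.

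By segment, a contrast that chose this gene, the GF small intestinal non-neuronal libraries (174 to 246 CPM) lay above the GF colonic ones (11.1 to 31.9 CPM), with means 8.82-fold apart and a log2 fold change, colon minus small intestine, of -4.00 (SE 0.71). In SPF libraries, the non-neuronal ranges of the segments overlapped and the means were 1.31-fold apart. Ordered by mean, the non-neuronal groups ran from GF small intestine over SPF small intestine and SPF colon to GF colon, and only the first stood clear of its neighbour in the order. Scaled by TMM factors, which correct for the makeup of each library, these means were 324, 101, 66.3 and 21.7 CPM in that order.

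Mesothelial markers, a list of 7 genes of the lining of the outer gut surface, are given beside these levels. Summed, they stood at 171 to 222 CPM in GF small intestinal, 121 to 154 CPM in SPF small intestinal, 85.0 to 121 CPM in GF colonic and 52.7 to 190 CPM in SPF colonic non-neuronal libraries, with all 7 genes detected in each of these groups. In neuronal libraries the sum was 0 to 6.84 CPM, with Msln, the gene of mesothelin, at 0 in GF colonic and SPF small intestinal neuronal libraries. Mitochondrial transcripts took 13.4% to 35.6% of counts in GF and 11.1% to 12.9% in SPF small intestinal non-neuronal libraries, against 3.49% to 10.8% in colonic ones. The part of either in the level of Rspo1 was not tested.

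**Figure D2:**
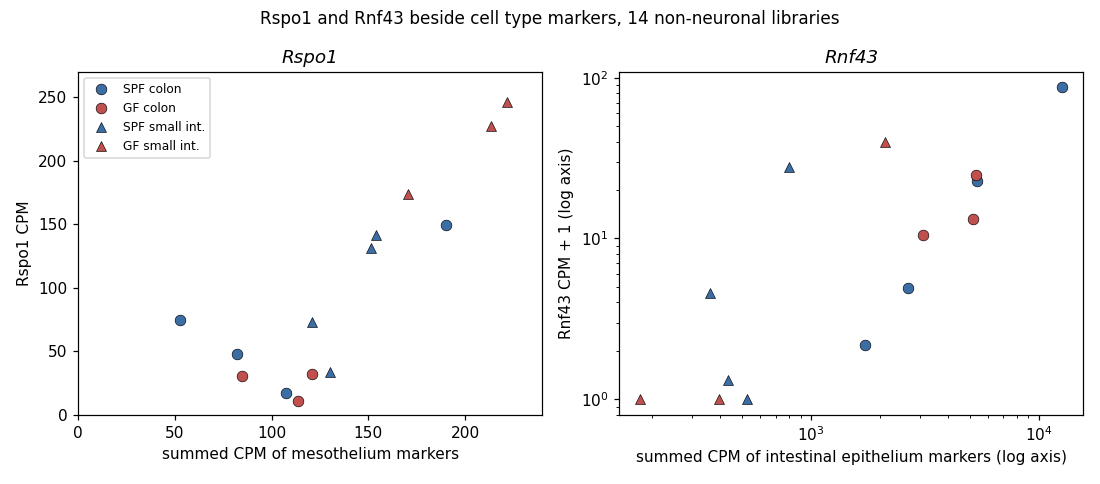
Marker levels against member levels in the 14 non-neuronal libraries, both in CPM, circles for the colon and triangles for the small intestine, blue SPF and red GF. The 3 GF small intestinal libraries sit at 171 to 222 CPM of summed mesothelial markers and 174 to 246 CPM of Rspo1, and 1 SPF colonic library reaches 190 CPM of the markers with 149 CPM of Rspo1.

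Rspo2 was low in every group and was called between fractions by edgeR in none of the 4 comparisons and by DESeq2 in 1. It is an R-spondin best known from limb and lung development. Its neuronal libraries of the SPF small intestine held 24.9, 10.5, 10.9 and 11.1 CPM and the non-neuronal ones 0.971, 0.317, 2.78 and 0 CPM. Although these libraries did not overlap and their means were 14.1-fold apart, the log2 fold change of 3.69 (SE 1.62) had an edgeR adjusted p of 0.117 and a DESeq2 adjusted p of 0.047. In replicate 1 of that neuronal group, interstitial cell of Cajal markers summed to 2408 CPM, against 728 to 850 CPM in the other libraries of the group, and their part in its Rspo2 level was not tested.

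In the GF small intestine Rspo2 stood at 9.09, 10.1 and 6.68 CPM in neuronal and at 0, 9.16 and 0.410 CPM in non-neuronal libraries, with overlap. In the GF colon it was at 3.45, 0.337 and 18.3 CPM in neuronal and 4.76, 4.01 and 0 CPM in non-neuronal libraries. In the SPF colon it was at 0.413, 5.68, 4.87 and 16.4 CPM against 2.34, 0, 6.79 and 31.2 CPM. The colonic groups spread widely and overlapped, and every neighbouring pair of groups in the order of Rspo2 means overlapped as well.

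Rspo3, the R-spondin known for its part in blood vessel development and in keeping the crypt niche, was lower in neuronal than in non-neuronal nuclei of the SPF colon. There it stood at 0, 5.96, 0.769 and 0.836 CPM in neuronal and at 17.2, 9.31, 30.5 and 19.7 CPM in non-neuronal libraries. The libraries did not overlap, and the means of 1.89 ± 2.74 and 19.2 ± 8.77 CPM (SD, n = 4 each) were 10.1-fold apart (edgeR log2 fold change -3.39, SE 1.12, adjusted p = 0.0435). The call was lost without any 1 of 6 of the 8 libraries, replicates 1, 3 and 4 of either fraction, at adjusted p of 0.0507 to 0.116, and with only the compared groups in the fit (0.0739).

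Rspo3 of the GF colon was at 6.11, 0 and 0 CPM in neuronal and at 42.0, 22.9 and 41.9 CPM in non-neuronal libraries, again without overlap and with means 17.5-fold apart, but the edgeR adjusted p was 0.0571, against 0.00117 by DESeq2 (log2 fold change -3.99, SE 1.32). Without the neuronal replicate 1, which alone held counts, that adjusted p was 0.00359. In the GF small intestine the neuronal libraries held 1.95, 2.79 and 12.9 CPM and the non-neuronal ones 16.4, 43.8 and 19.1 CPM (edgeR log2 fold change -2.57, SE 1.23, adjusted p = 0.18, DESeq2 adjusted p = 0.0389). Neuronal Rspo3 of the SPF small intestine was at 13.6, 8.29, 13.4 and 19.7 CPM and overlapped the non-neuronal 51.5, 17.7, 20.04 and 27.8 CPM (edgeR log2 fold change -1.20, SE 1.02, adjusted p = 0.467).

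Lymphatic endothelial markers, 6 genes, summed to 753 to 1962 CPM in colonic and 3.17 to 146 CPM in small intestinal non-neuronal libraries, while Rspo3 stood at 9.31 to 42.0 and 16.4 to 51.5 CPM in the same libraries. Neuronal libraries held 5.14 to 63.7 CPM of these markers, and their part in the Rspo3 difference between fractions was not tested. An antisense gene whose exons overlap those of Rspo3, Gm48159, averaged at most 0.504 CPM in any group.

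Rspo4, an R-spondin known from nail development, had 6 counts in all, in 3 of the 28 libraries, the highest at 1.27 CPM. It did not pass the filter on low counts and was not detectable at this depth in the other 25 libraries. Among the R-spondins, compared as CPM per kilobase of exon, Rspo1 was the highest in 12 of 14 non-neuronal libraries and Rspo3 in the other 2. In the 14 neuronal libraries no R-spondin led throughout, with Rspo2 highest in 6 and Rspo1 and Rspo3 in 4 each. Rspo1 made up 92.4% of summed R-spondin level per kilobase in GF small intestinal non-neuronal libraries, 83.4% in SPF small intestinal, 82.1% in SPF colonic and 51.1% in GF colonic ones.

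Lgr4, the most broadly expressed of the R-spondin receptors, was present in all 28 libraries and was the LGR gene with the highest level per kilobase in each of them. In the SPF colon its neuronal libraries held 9.91, 10.3, 13.6 and 32.3 CPM and its non-neuronal libraries 45.3, 36.4, 72.6 and 65.2 CPM. For the SPF small intestine the values were 16.6, 30.8, 38.0 and 7.87 CPM against 65.4, 40.2, 48.2 and 55.1 CPM. In both, every non-neuronal library lay above every neuronal one.

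The same held in GF mice, where colonic neuronal Lgr4 was at 46.2, 41.4 and 15.1 CPM and non-neuronal Lgr4 at 53.8, 56.6 and 123 CPM. In the GF small intestine neuronal Lgr4 was at 18.2, 23.8 and 22.9 CPM and non-neuronal Lgr4 at 36.2, 49.9 and 34.4 CPM. The means were 3.32-fold apart in the SPF colon, 2.24-fold in the SPF small intestine, 2.28-fold in the GF colon and 1.86-fold in the GF small intestine. None of these differences passed the edgeR test over all genes, with adjusted p of 0.0532, 0.113, 0.376 and 0.173 in that order. DESeq2 called all but that of the GF colon, with adjusted p of 0.00305, 0.0127, 0.146 and 0.0286. In the SPF colon the log2 fold change of -1.78 (SE 0.61) passed without the neuronal replicate 4 (adjusted p = 0.0279), the library at 32.3 CPM.

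Lgr5, the receptor gene that marks crypt base stem cells, was the member with the widest range of mean CPM between neuronal groups, 0.412 to 31.3 CPM. In SPF colonic neuronal libraries it stood at 0, 0.812, 0 and 0.836 CPM, 6 counts in all. In GF colonic neuronal libraries it stood at 48.4, 42.8 and 2.66 CPM. Replicate 3 of the GF group was far below the other two, yet still above every SPF library, and the means of 31.3 ± 24.9 (SD, n = 3) and 0.412 ± 0.476 CPM (SD, n = 4) were 75.9-fold apart. The fitted log2 fold change, SPF minus GF, was -6.25 (SE 1.34), given without a test because the gene was chosen on this contrast.

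Small intestinal neuronal libraries held 11.1, 10.3, 2.92 and 1.48 CPM of Lgr5 in SPF and 5.52, 8.79 and 3.67 CPM in GF mice, with overlap. By segment, SPF neuronal libraries of the small intestine all lay above those of the colon, with means 15.6-fold apart. In GF mice the colonic neuronal mean was the higher one, 5.22-fold, with overlap between the segments. The segment difference in Lgr5 thus had opposite signs in the 2 microbiota states, which is part of how the gene was chosen.

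**Figure D3:**
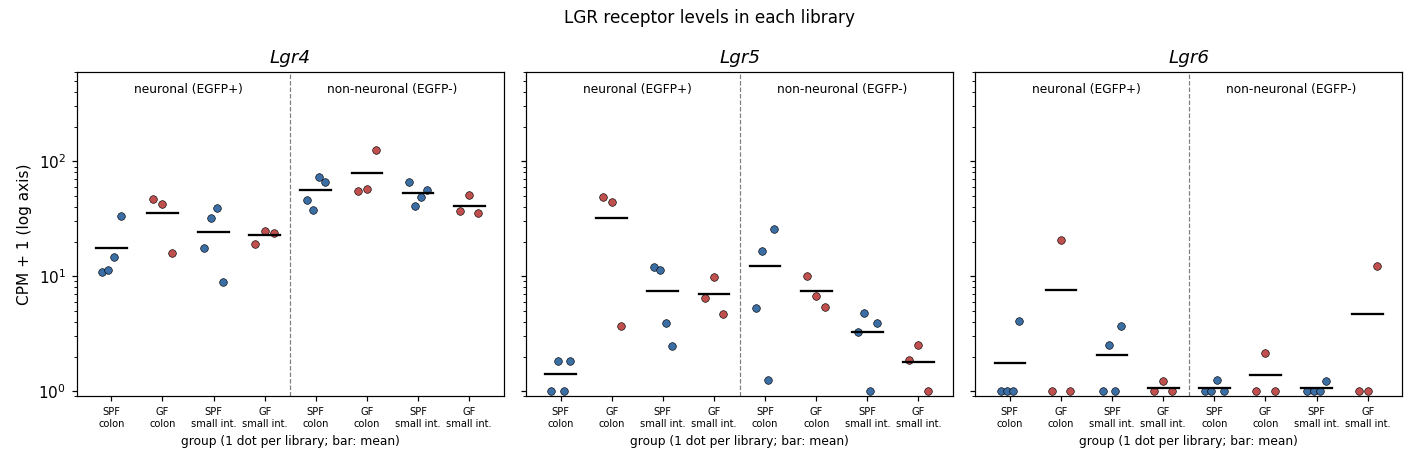
CPM plus 1, on a log axis, of Lgr4, Lgr5 and Lgr6 in each library of the 8 groups. Dots are libraries, blue SPF and red GF, ordered by replicate, and bars are group means. Lgr4 is above 0 in every library, Lgr5 reaches 42.8 and 48.4 CPM in GF colonic neuronal replicates 2 and 1 while no SPF colonic neuronal library exceeds 0.836 CPM, and Lgr6 is at 0 in 19 of the 28 libraries.

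In the SPF colon, non-neuronal libraries held 4.29, 15.6, 0.261 and 24.7 CPM of Lgr5, overlapping the neuronal ones, with means 27.2-fold apart. The fitted log2 fold change, neuronal minus non-neuronal, was -4.68 (SE 1.53) there, 1.26 (SE 1.32) in the SPF small intestine, 2.38 (SE 1.56) in the GF colon and 2.404 (SE 1.59) in the GF small intestine. These values carry no test, because Lgr5 was chosen on the neuronal libraries that enter each of them.

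The remaining non-neuronal libraries held 9.07, 5.72 and 4.39 CPM of Lgr5 in the GF colon, 2.27, 3.80, 0 and 2.94 CPM in the SPF small intestine and 0.873, 1.53 and 0 CPM in the GF small intestine. Markers of crypt base stem cells, 6 genes, summed to 81.5 to 160 CPM in GF and 118 to 218 CPM in SPF colonic neuronal libraries, with Olfm4 at 0 in every group except SPF small intestinal neuronal nuclei (mean 0.123 CPM). In each of the 2 colonic neuronal groups 4 of the 6 averaged below 1 CPM, so nearly all of the sum came from the rest. Ascl2 was at 0 in the SPF and Cdca7 in the GF group. Intestinal epithelial markers, 7 genes, summed to 25.9 to 54.6 CPM in GF and 19.8 to 88.4 CPM in SPF colonic neuronal libraries, with 4 of the 7 below a mean of 1 CPM in either group. The part of either in the level of Lgr5 was not tested. As a share of the summed LGR level per kilobase, Lgr5 made up 31.0% in GF and 1.36% in SPF colonic neuronal libraries.

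Lgr6, a receptor known from hair follicle stem cells, had counts in 9 of 28 libraries, and single libraries set its level. Replicate 2 of the GF colonic neuronal group held 19.5 CPM while the other libraries of that group held 0. Replicate 3 of the GF small intestinal non-neuronal group held 11.2 CPM, again with 0 in the others. No other library exceeded 3.07 CPM. Its fitted fraction difference of -5.92 (SE 2.81) in the GF small intestine, resting on that library, had an edgeR adjusted p of 0.176. Lgr6 passed the filter on low counts in the neuronal but not in the non-neuronal fit, so its fraction values are a description.

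Znrf3, 1 of the pair of ligases that clear Frizzled receptors, was lower in neuronal than in non-neuronal nuclei of the SPF colon. The neuronal libraries held 8.26, 48.5, 32.6 and 10.6 CPM and the non-neuronal ones 83.5, 180, 102 and 63.5 CPM. These did not overlap, and the means of 25.0 ± 19.1 and 107 ± 51.1 CPM (SD, n = 4 each) were 4.296-fold apart (edgeR log2 fold change -2.18, SE 0.64, adjusted p = 0.0226). The call was lost without non-neuronal replicate 2 (adjusted p = 0.0993), neuronal replicate 1 (0.08) or neuronal replicate 4 (0.0791).

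Neuronal Znrf3 was at 23.1, 28.8, 32.2 and 24.8 CPM in the SPF small intestine and non-neuronal Znrf3 at 59.5, 20.6, 138 and 49.9 CPM (edgeR log2 fold change -1.41, SE 0.63, adjusted p = 0.123). Its neuronal libraries of the GF colon held 26.6, 13.5 and 6.49 CPM, all below the 74.2, 36.3 and 57.5 CPM of the non-neuronal ones (edgeR log2 fold change -1.75, SE 0.74, adjusted p = 0.139). In the GF small intestine 41.9, 28.9 and 14.4 CPM overlapped 38.0, 53.2 and 24.2 CPM (edgeR log2 fold change -1.04, SE 0.72, adjusted p = 0.392). The sign was thus negative in all 4 comparisons, and edgeR called only that of the SPF colon, DESeq2 also those of the SPF small intestine (adjusted p = 0.0327) and the GF colon (0.0358).

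Rnf43, the other ligase of the pair, was close to undetected in neuronal nuclei: 3 counts over 14 libraries, against 1065 counts over the 14 non-neuronal libraries. The neuronal counts came from SPF colonic replicate 1 (0.413 CPM) and GF small intestinal replicate 2 (0.429 CPM), and the gene passed the filter on low counts only through the non-neuronal groups. In SPF colonic non-neuronal libraries it stood at 1.17, 86.0, 3.92 and 21.9 CPM, and in GF colonic ones at 12.3, 9.44 and 24.0 CPM. In small intestinal non-neuronal libraries it was at 3.56, 0.317, 0 and 26.9 CPM in SPF and at 0, 0 and 38.9 CPM in GF mice, so most of each small intestinal mean came from 1 library.

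Because Rnf43 entered the fit only through the groups where it is high, no test between fractions is read for it. The neuronal groups hold too few counts for a fold: the ratio of pooled counts was 456 with a 95% interval of 81.5 to 18040 in the SPF colon, and the SPF small intestinal non-neuronal mean was at least 6.13-fold higher than 3 counts would give in a single neuronal library.

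In the colon of GF mice the non-neuronal mean of Rnf43 was at least 15.1-fold higher than the same floor. The fitted log2 fold change in the GF small intestine was -6.96 (SE 2.42). Without small intestinal non-neuronal replicate 3, the only library of that group with counts, the fitted sign turned (log2 fold change 2.37). Intestinal epithelial markers summed to 1727, 12700, 2666 and 5354 CPM in SPF colonic and to 5161, 3098 and 5280 CPM in GF colonic non-neuronal libraries, in replicate order. In SPF small intestinal non-neuronal libraries they summed to 359, 434, 524 and 804 CPM and in GF ones to 178, 395 and 2111 CPM, against 19.8 to 88.4 CPM in neuronal libraries. In each of these 4 groups the library with the most Rnf43 was also the one with the most epithelial transcript. The part of epithelial nuclei or transcripts in the level of Rnf43 was not tested.

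**Figure D4:**
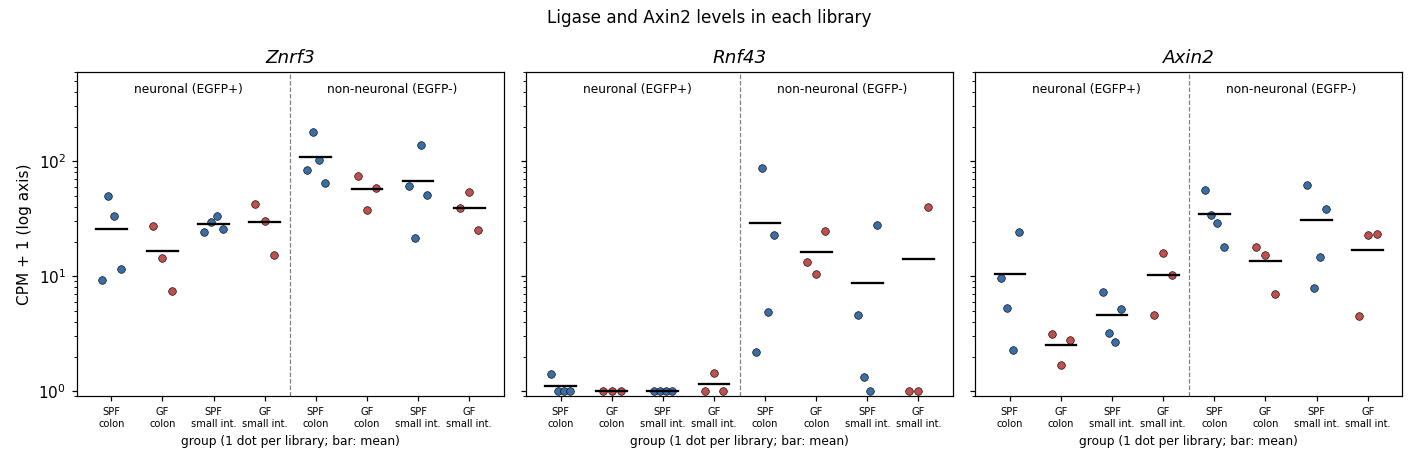
CPM plus 1, on a log axis, of Znrf3, Rnf43 and Axin2 in each library of the 8 groups. Dots are libraries, blue SPF and red GF, ordered by replicate, and bars are group means. Rnf43 does not exceed 0.429 CPM in any neuronal library and spreads from 0 to 86.0 CPM over the non-neuronal ones, while Znrf3 is at 6.49 CPM or more in every library.

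Per kilobase, Znrf3 was the higher of the ligases in all 14 neuronal libraries and in 13 of 14 non-neuronal libraries. The exception was GF small intestinal non-neuronal replicate 3, with 38.9 CPM of Rnf43. Rnf43 made up 12.2% to 28.9% of the summed ligase level per kilobase in the non-neuronal groups and at most 0.602% in the neuronal groups.

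Axin2, the feedback gene often read as a sign of beta-catenin signalling, was lower in neuronal than in non-neuronal nuclei of the SPF small intestine. Its 250 bases upstream of the start, at chr11:108920099-108920348 on the plus strand, are shown from RefSeq (GRCm38.p6) because Axin2 is the textbook target among the 10 genes. The window is 69.2% G and C with 24 CpG pairs and, like that of Rspo1, holds none of the 4 TCF core heptamers on either strand.
Axin2 promoter: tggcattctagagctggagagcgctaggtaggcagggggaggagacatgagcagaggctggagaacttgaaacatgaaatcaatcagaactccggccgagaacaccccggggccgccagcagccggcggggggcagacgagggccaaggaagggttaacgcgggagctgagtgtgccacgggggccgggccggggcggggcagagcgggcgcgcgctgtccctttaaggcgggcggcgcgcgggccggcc
The gene itself lies at 108920349 to 108950783 on the plus strand of chromosome 11.

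Axin2 of the SPF small intestine stood at 6.28, 2.18, 1.67 and 4.18 CPM in neuronal and at 61.2, 6.96, 13.6 and 37.5 CPM in non-neuronal libraries. No neuronal library reached the lowest non-neuronal one, and the means of 3.58 ± 2.10 and 29.8 ± 24.7 CPM (SD, n = 4 each) were 8.33-fold apart (edgeR log2 fold change -3.13, SE 1.00, adjusted p = 0.0283). The call was lost without non-neuronal replicates 1 or 4 or neuronal replicates 2, 3 or 4, at adjusted p of 0.0509 to 0.0911, and without the low-count filter (0.0566).

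In the SPF colon Axin2 was at 8.68, 4.33, 1.28 and 23.4 CPM in neuronal and at 55.8, 33.1, 27.9 and 16.9 CPM in non-neuronal libraries, with overlap through neuronal replicate 4 (edgeR log2 fold change -1.87, SE 0.95, adjusted p = 0.211). Every neuronal library of the GF colon, at 2.13, 0.674 and 1.77 CPM, stood below the non-neuronal 17.0, 14.3 and 5.99 CPM (edgeR log2 fold change -2.90, SE 1.16, adjusted p = 0.12, DESeq2 adjusted p = 0.016). In the GF small intestine 3.57, 14.8 and 9.18 CPM overlapped 3.49, 21.9 and 22.1 CPM (edgeR log2 fold change -1.29, SE 1.08, adjusted p = 0.493). Gm11670, an antisense gene whose exons overlap those of Axin2, averaged 3.97 CPM in GF colonic non-neuronal libraries, with 11.1 CPM in 1 of them, 1.89 CPM in GF small intestinal non-neuronal ones and at most 0.243 CPM elsewhere. If the counting did not use strand, reads of the pair cannot be told apart.

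Side by side, 9 of the 10 genes passed the filter on low counts in the fit across fractions, all but Rspo4. Counts are given for 7 of them, leaving out Lgr5, chosen on the neuronal libraries, and Rnf43, kept only through the non-neuronal ones. Rspo1 stays among the 7 although it was chosen on the non-neuronal libraries. Lgr6 also stays, although it passed the filter in the neuronal but not in the non-neuronal fit, and neither edgeR nor DESeq2 called it between fractions. By edgeR 3 of the 7 were lower in neuronal nuclei of the SPF colon (Rspo1, Rspo3 and Znrf3), where 7.56% of all genes tested were called lower. SPF small intestinal neuronal nuclei had 2 lower (Rspo1 and Axin2), against 5.99% of all genes. In the GF colon and the GF small intestine 1 was lower, Rspo1, against 4.98% and 5.33% of all genes. DESeq2 called 4, 4, 4 and 3 of the 7 lower in that order and 1 higher, Rspo2 in the SPF small intestine. By edgeR none of the 7 was higher in neuronal nuclei, where 3.27%, 9.09%, 2.2% and 5.6% of all genes were in the SPF colon, the SPF small intestine, the GF colon and the small intestine of GF mice. The median log2 fold change over the 9 genes was -2.18, -1.39, -1.75 and -1.48 in that order, against -0.05, 0.03, -0.07 and 0.02 over all genes tested. Because genes could pass the filter through the group where they are high, these counts and medians are a description and nothing is read from them against the share of all genes.

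**Figure D5:**
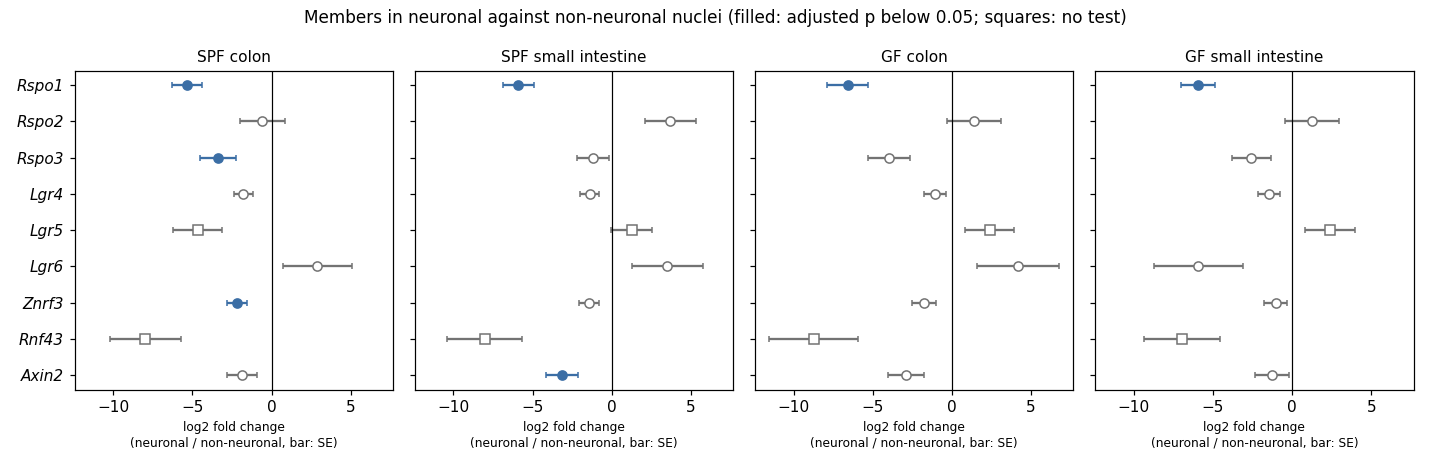
Fitted log2 fold change, neuronal minus non-neuronal, of the 9 genes that passed the filter in each of the 4 fraction comparisons, with bars of 1 standard error. Filled dots have an adjusted p below 0.05 by edgeR, and squares, Lgr5 and Rnf43, carry no test. Rspo1 is filled in all 4 panels at -5.36 to -6.59, and every filled dot is below 0. The fill of Rspo1 is a description, because the gene was chosen on the non-neuronal libraries.

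Whether the fraction difference itself differed between the segments was tested for the 7 genes other than Rspo1 and Lgr5. Rnf43 and Lgr6 are among these 7, although each passed the filter in the fit of only 1 fraction. For these 2 neither a call nor a missing call is read. The counts over the 7 are therefore a description, and nothing is read from them against the share of all genes. The 1 gene with an unadjusted p under 0.05 in GF mice was Lgr6. None was called by edgeR in SPF mice, where 0.892% of all genes were, nor in GF mice, where 0.21% were, and at an unadjusted p under 0.05 there were 0 and 1 of the 7, against 2970 and 2348 of 20964 genes. DESeq2 called 1 in each, Rnf43, a call that is not read because the gene entered the fit only through the non-neuronal groups. The largest fitted values were -4.27 (SE 2.14, edgeR adjusted p = 0.363) for Rspo2 in SPF mice and 10.1 (SE 3.82, edgeR adjusted p = 0.295) for Lgr6 in GF mice. The value of Lgr6 rests on the single libraries that set its level. That a gene passed the test between fractions in 1 segment and missed it in the other is therefore not shown to be a difference between segments.

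Between SPF and GF mice, none of the 8 genes that passed the filter in the non-neuronal fraction was called by edgeR or by DESeq2 in either segment. Of all genes, edgeR called 0.0% in the colon and 0.00547% in the small intestine. At an unadjusted p under 0.05 there was 1 of the 8 in each segment, Rspo1, against 445 of 18267 genes in the colon and 1987 of 18267 in the small intestine. Rspo1 was chosen on the segment contrast of these same libraries. Its p-values here are therefore a description, and nothing is read from them against the share of all genes. In colonic non-neuronal nuclei the SPF mean of Rspo1, 72.4 ± 56.3 CPM (SD, n = 4), stood above the GF mean, 24.5 ± 11.6 CPM (SD, n = 3), with a log2 fold change, SPF minus GF, of 1.61 (SE 0.62, edgeR adjusted p = 1.0). In small intestinal non-neuronal nuclei the SPF mean of 95.1 ± 50.7 CPM was below the GF mean of 216 ± 37.5 CPM, with a log2 fold change of -1.65 (SE 0.59, edgeR adjusted p = 0.344), and no SPF library reached the lowest GF one.

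With SPF replicates 1 and 2 only, these 2 values for Rspo1 were 2.24 (edgeR adjusted p = 1.0) and -1.86 (edgeR adjusted p = 0.392). The fitted difference between the segments in the effect of the microbiota was 3.27 (SE 0.86) for Rspo1, given without a test because it holds the segment contrast on which the gene was chosen. Of the 6 other non-neuronal genes tested for such a difference none was called, against 0.0% of all genes, none had an unadjusted p under 0.05, against 1242 of 18267 genes, and DESeq2 called none. In neuronal nuclei, where the contrast chose Lgr5, the other genes are given as values: Axin2 averaged 9.42 ± 9.80 CPM (SD, n = 4) in SPF and 1.52 ± 0.757 CPM (SD, n = 3) in GF colonic neuronal libraries, with overlap, and Lgr4 16.5 ± 10.7 and 34.2 ± 16.8 CPM, also with overlap.

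The wider pathway was read from 7 lists of 86 genes, of which 58 passed the filter in the fit across fractions and in the non-neuronal fit and 46 in the neuronal fit. Between fractions, 13 of the 58 were lower in neuronal nuclei of the SPF colon, 16 of the SPF small intestine, 12 of the GF colon and 8 of the GF small intestine, where 7.56%, 5.99%, 4.98% and 5.33% of all genes were called lower. The counts that held in every fit leaving out 1 library were 8 of 13 in the SPF colon, 12 of 19 in either direction in the SPF small intestine, 4 of 12 in the GF colon and 4 of 8 in the GF small intestine. The median over the 58 was -1.63, -1.24, -1.81 and -1.25 in that order, against -0.05, 0.03, -0.07 and 0.02 over all genes. Listed genes that failed the filter in the neuronal fit entered the fit across fractions through the non-neuronal libraries, where they are higher. These counts and medians, and those per list below, are therefore a description, and nothing is read from them against the share of all genes. Of the 58 genes 3 were higher in SPF small intestinal neuronal nuclei, against 9.09% of all genes, and they were singled out after their values were seen. Wnt11, a ligand, was at 0 in all 4 non-neuronal libraries and in 1 neuronal library, and its neuronal mean of 4.07 CPM was at least 4.197-fold higher than 3 counts would give in a single non-neuronal library (edgeR adjusted p = 0.0122). Porcn, the enzyme that adds the lipid Wnts need for secretion, had a log2 fold change of 1.95 (edgeR adjusted p = 0.0241). That call was lost without non-neuronal replicates 1, 2 or 4 or neuronal replicate 1 (0.0572 to 0.12) and with only the compared groups in the fit (0.102). Gsk3b, a kinase that marks beta-catenin for degradation, had a log2 fold change of 0.89 (edgeR adjusted p = 0.0489), was called in 2 of 8 fits without 1 library and was not called by DESeq2 (0.0584).

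Among Wnt receptors, 5, 6, 4 and 2 of 13 were lower in neuronal nuclei, in the order of comparisons given above. Only 9 of the listed receptors passed the filter in the neuronal fit. Frizzled 2, Fzd2, was at 0 in all 4 SPF colonic neuronal libraries and averaged 19.3 CPM in the non-neuronal ones, at least 15.6-fold higher. The receptor tyrosine kinase Ror2, which binds Wnt5a, was lower in neuronal nuclei in all 4 comparisons (log2 fold change -5.33, -5.65, -5.97 and -4.98, edgeR adjusted p = 0.00462, 0.00163, 0.0203 and 0.0201). In neuronal libraries Ror2 did not exceed 4.27 CPM, with group means of 0.0886 to 1.41 CPM. It entered the fit through the non-neuronal libraries, where it is high, so its calls and adjusted p-values are a description. Its GF calls were each lost without 1 of 3 libraries, at adjusted p of 0.0581 to 0.106: non-neuronal replicate 1 and neuronal replicates 2 and 3 in the colon, and non-neuronal replicate 2 and neuronal replicates 1 and 3 in the small intestine.

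Of 8 extracellular Wnt inhibitors 3, 2, 3 and 1 were lower in neuronal nuclei, in the same order. Sfrp1, a secreted protein that binds Wnts, averaged 145 ± 31.8 CPM in SPF colonic non-neuronal and 2.56 ± 2.26 CPM in neuronal libraries (SD, n = 4 each; edgeR log2 fold change -5.83, adjusted p = 0.00185). Of 8 BMP ligands and antagonists 3, 2, 1 and 2 were lower. Chrdl1, a secreted BMP antagonist, was lower in all 4 comparisons (log2 fold change -5.81, -5.24, -7.09 and -7.755, edgeR adjusted p = 0.000325, 0.000328, 0.000917 and 0.000114), and kept its call without any 1 library. Its neuronal group means were 0.177 to 2.435 CPM, and no neuronal library exceeded 6.98 CPM. Chrdl1 thus entered the fit through the non-neuronal libraries, where it is high, and these calls and adjusted p-values are a description.

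Of 7 other Wnt target and feedback genes 1, 3, 3 and 2 were lower in neuronal nuclei. Nkd1 and Nkd2 encode naked cuticle proteins, which bind Dishevelled and damp Wnt signalling. Nkd1 was lower in all 4 comparisons (log2 fold change -4.16, -5.86, -6.14 and -5.80, edgeR adjusted p = 0.0173, 0.00118, 0.0116 and 0.00597), with the SPF colonic call lost without non-neuronal replicate 3 (0.18) or neuronal replicates 1 (0.0614) or 3 (0.0595) or with only the compared groups in the fit (0.0658), and the GF colonic call lost without neuronal replicates 2 (0.08) or 3 (0.0716). Nkd2 was lower in 3, the SPF small intestine, the GF colon and the GF small intestine (log2 fold change -3.67, -6.79 and -4.96, edgeR adjusted p = 0.00175, 0.000335 and 0.000862), and kept these calls without any 1 library.

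Between segments, Nkd2 was lower in colonic than in small intestinal non-neuronal nuclei, at 52.2 ± 20.8 against 311 ± 163 CPM in SPF mice (SD, n = 4 each; edgeR log2 fold change -3.04, adjusted p = 0.00122) and at 61.7 ± 29.4 against 295 ± 70.1 CPM in GF mice (SD, n = 3 each; -3.05, adjusted p = 0.00509). The GF call was lost without colonic replicate 3 (adjusted p = 0.0594) and with all 28 libraries in the fit (0.103). In SPF mice 3 of the 58 genes differed between segments in non-neuronal nuclei, all lower in the colon, where 1.09% of all genes differed, and in GF mice 1, where 0.712% did. The other 2 in SPF mice were Grem1, a BMP antagonist (-2.80, adjusted p = 0.0209), and Wnt5a, a ligand (-3.55, adjusted p = 0.0439), whose calls held in 4 and 2 of the 8 fits without 1 library, with Wnt5a at 0.411 without small intestinal replicate 2. With all 28 libraries in the fit both calls were lost (0.0989 for Grem1 and 0.0849 for Wnt5a), and Wnt5a's also with only the compared groups (0.0689).

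Among the 15 components of the beta-catenin pathway tested, Tcf7l2, which encodes a transcription factor that beta-catenin binds, was the 1 gene lower in neuronal nuclei of the SPF and GF colon. In SPF colonic neuronal libraries it averaged 40.6 ± 14.6 CPM (24.0 to 54.7), against 189 ± 47.4 CPM in non-neuronal ones (SD, n = 4 each; edgeR log2 fold change -2.28, adjusted p = 0.00091). In GF colonic neuronal libraries it averaged 22.9 ± 11.5 CPM, against 290 ± 196 CPM (SD, n = 3 each; -3.54, adjusted p = 6.61e-05). Small intestinal neuronal libraries held far more, 175 ± 74.1 CPM in SPF and 169 ± 38.2 CPM in GF mice.

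Tcf7l2 was the only 1 of the 46 genes tested in neuronal nuclei that differed between segments, lower in the colon in SPF (log2 fold change -2.25, SE 0.41, edgeR adjusted p = 0.00486) and in GF mice (-2.84, SE 0.49, edgeR adjusted p = 0.00404), where 0.653% and 0.301% of all genes differed. Both calls held without any 1 library. The difference between segments in its fraction effect was -2.48 in SPF mice (SE 0.64, edgeR adjusted p = 0.0466), a call that held in 2 of 16 fits without 1 library (highest adjusted p 0.115) and was lost with relative log size factors (0.0598). Between SPF and GF mice edgeR called none of the listed genes in any of the 4 comparisons, with 6 of 46, 2 of 46, 0 of 58 and 8 of 58 at an unadjusted p under 0.05 in colonic neuronal, small intestinal neuronal, colonic non-neuronal and small intestinal non-neuronal nuclei, and DESeq2 called 1, 0, 0 and 1. Of all genes, 1599 of 17298, 415 of 17298, 445 of 18267 and 1987 of 18267 had such a p.

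The genes whose levels followed each member most closely were read from Pearson correlations of log2(CPM + 1) over the 28 libraries, among 14859 genes with a mean of at least 1 CPM. These libraries share fractions, segments and sequencing depth, so the values describe likeness of pattern across groups and nothing more. Rspo1 was most like Muc16 (r = 0.93), the gene of a mucin of mesothelial and other linings, followed by Ppp1r12a (0.91) and Ccdc88c (0.91). Rspo3 was most like Cspg4 (0.91), a gene of pericytes and other mural cells.

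Rnf43 was most like Aadac (0.93), Vamp8 (0.92) and Ppp1r1b (0.91). Lgr4 was most like Mcc (0.82), and Rspo2 most like Popdc3 (0.84). The likeness was weaker for Znrf3, nearest to Fmo1 (0.79), for Axin2, nearest to Art3 (0.78), and for Lgr5, nearest to Plk1 (0.73). For Lgr6 the nearest was Xirp1 (0.81), a value that rests on the few libraries with Lgr6 counts. Of the 27 genes that ranked among the nearest 3 of the 9 members, 23 also did so with a pseudocount of 0.5 and 23 with a minimum mean of 5 CPM.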

How the data were processed

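Nuclear RNA of sorted EGFP-positive and EGFP-negative nuclei was read as 75 bp single ends after amplification with 8 PCR cycles, per the labels' protocols. The authors deposited 1 table of expected counts, 51912 genes by 28 libraries, with 7.478% of the values fractional. The submitters' processing notes list the tools STAR 2.5.2, RSEM 1.3.0 and DESeq2 1.10.1 and the build GRCm38, without roles. The sources used here do not give the strand setting.

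Values were rounded. Identifiers were matched to symbols for 51633 genes. The libraries carried no molecular identifiers, so intervals and floors cover counting error only. Folds are ratios of mean CPM, against a floor of 3 counts in 1 library where a group held 0, or ratios of pooled counts with an exact 95% interval where it held 1 to 3. Coordinates and exon lengths are from GENCODE M21.

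Tests used edgeR 4.0.16 in R 4.3.3 (quasi-likelihood F test, two-sided, TMM scaling, low-count filter by group, robust dispersion). Fraction comparisons were fitted on all 28 libraries (20964 genes) and comparisons within a fraction on its 14 (17298 neuronal and 18267 non-neuronal genes). Calls are at a Benjamini-Hochberg adjusted p below 0.05 over all genes tested, and SE is the size of the log2 fold change divided by the root of F. Named genes outside the 10 members are, per list and comparison, up to 3 called genes of largest change with at least 5 CPM in the higher group and no overlap, and genes among the 3 of most similar pattern per member, of which 1 is not reported here. Wnt11, Porcn and Gsk3b fall outside this rule and were chosen after their values were seen. The members, lists and rules were chosen with earlier results of these data known. No library pair within a group was identical. The tests were tested on simulated data, with 50 genes changed at each fold. Between SPF colon fractions edgeR called 0% of 2-fold, 10% of 4-fold and 40% of 8-fold changes. For SPF against GF small intestinal non-neuronal nuclei it called 0%, 6% and 26% of them. Differences of such size can therefore go uncalled, and a missing call does not show that levels were equal.

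Alternatives were relative log size factors, DESeq2 1.42.0, no low-count filter, a replicate block, all 28 libraries or only the compared groups in the fit, and leaving out each library in turn. SPF replicates 1 and 2 only was added after the data were seen.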

Additional observations from a re-analysis of the deposited data

Results flagged for a closer look

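In 25 groups of 4 SPF libraries in which a member reached at least 5 CPM, the highest or lowest library was compared with the rest of its group, and 4 stood apart by Dixon's 95% criterion. Chance meets that criterion in about 1 of 20 groups of normally distributed values. The rate for CPM values such as these was not tested, so nothing is read from the number found. Rspo2 reached 24.86 CPM in SPF small intestinal neuronal replicate 1, the other libraries lying at 10.5 to 11.1 CPM. Rspo3 reached 5.955 CPM in SPF colonic neuronal replicate 2, with the others at 0 to 0.836 CPM. Lgr4 reached 32.32 CPM in SPF colonic neuronal replicate 4, with the others at 9.91 to 13.6 CPM. Rnf43 reached 26.86 CPM in SPF small intestinal non-neuronal replicate 4, with the others at 0 to 3.56 CPM.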

How the results depend on the processing

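Replicate numbers did not clearly pair the libraries. Deviations of same-numbered libraries correlated at -0.0745 to 0.0763 across 14555 genes, and no such pair was over 0.1. Those of differently numbered libraries correlated at -0.0939 to 0.103. Only between GF non-neuronal segments did same-numbered pairs lie above all others, at 0.0179 to 0.067 against -0.0568 to 0.00752. In every SPF group Xist was high in replicates 3 and 4 alone, so the numbers may still mark shared animals, which was not tested. The block lost the SPF colonic calls of Rspo3 (adjusted p = 0.0728) and Nkd1 (0.0523), the SPF small intestinal call of Gsk3b (0.0588) and the SPF segment call of Wnt5a (0.12). Of the 10 genes, with Lgr5 and Rnf43 counted though no test is read for them, the number called between fractions in the SPF colon was 5, but 3 with a replicate block, 2 with only the compared groups in the fit and 2 to 4 when 1 library was left out. In the SPF small intestine it was 3, but 6 with DESeq2 and 1 to 3 when 1 library was left out. In the GF colon it was 1, but 3 with relative log size factors, 5 with DESeq2, 3 without the low-count filter, 2 with the replicate block, 2 with only the compared groups and 1 to 2 when 1 library was left out. In the GF small intestine it was 1, but 3 with DESeq2, 2 without the filter and 1 to 2 when 1 library was left out. The fraction by segment interactions called 0 members and DESeq2 1 in each of SPF and GF mice, Rnf43, whose call is not read. The sign of Rnf43 in the GF small intestine turned without non-neuronal replicate 3 (log2 fold change 2.373). Without any other library it was -9.318 to -6.406, with -7.572 and -7.534 for non-neuronal replicates 1 and 2. Listed pathway genes called between segments were 1 in SPF neuronal nuclei (2 with DESeq2, 2 without the filter), 1 in GF neuronal nuclei (3 with DESeq2, 3 without the filter, 2 with the block, 1 to 2 when 1 library was left out), 3 in SPF non-neuronal nuclei (5 with DESeq2, 1 to 3 when 1 library was left out) and 1 in GF non-neuronal nuclei (2 with DESeq2, 4 without the filter, 2 with the block, 0 with all 28 libraries in the fit). Between SPF and GF colonic neuronal nuclei 0 were called, 1 with DESeq2 and 0 to 1 when 1 library was left out. Where a value moved, the cause was not tested. Of the counts over all genes used as background, that of the GF colon fractions went from 1504 to 2956 with DESeq2, that of the GF small intestine fractions from 2291 to 3742, that of SPF neuronal segments from 113 to 429 with DESeq2 and 298 without the filter, and that of GF neuronal segments from 52 to 355 and 173 and to 33 with all 28 libraries and 28 with only the compared groups. Non-neuronal segments went from 199 to 1083 with DESeq2, 579 without the filter, 319 with the block and 811 with all 28 libraries in SPF mice, and from 130 to 543, 303, 207 and 309, and to 76 with only the compared groups, in GF mice. The fraction by segment interactions went from 187 to 810 with DESeq2 and 630 without the filter in SPF and from 44 to 509 and 296 in GF mice. The contrast of SPF with GF went from 0 to 138 with DESeq2, 80 without the filter and 2 with the block in colonic neuronal nuclei, from 0 to 10 and 1 in small intestinal neuronal nuclei, from 0 to 5 with DESeq2 in colonic non-neuronal nuclei, and in small intestinal non-neuronal nuclei from 1 to 374 with DESeq2, 161 without the filter, 34 with all 28 libraries and 0 with the block. Genes under the floor of 0.410 to 1.25 CPM, such as Rspo4 in most libraries, are beyond this depth.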
